A study of Homo sapiens with 6 samples.

Results

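Cells remodel the matrix around them with secreted and membrane-bound proteases, and the genes described here encode 9 parts of that machinery: the matrix metalloproteinases MMP1, MMP3 and MMP14, the tissue inhibitors of metalloproteinases TIMP1, TIMP2 and TIMP3, and, from the plasminogen system, the activators PLAU and PLAT and the receptor PLAUR. They were taken as a named list of 9 genes out of 60651 gene rows. All 9 had a row and all 9 passed the filter on low counts, which left 15589 rows to test. The cells were MDA-MB-231, a long-established human line from a triple-negative breast cancer, labelled wild type. Its cells were kept in medium with serum and exposed for 24 h to DMSO (the control), to AF-EAE at 75 µg/ml or to AF-EAE at 150 µg/ml, with 2 sequenced RNA libraries in each of the 3 groups. AF-EAE is made from the plant Antenoron filiforme by extraction with ethyl acetate, and the doses are of this whole mixture. Replicates are labelled biological, but no label states that they were separate cultures, and p-values therefore reflect only how far these libraries spread.

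Metalloproteinases are made as inactive zymogens, are switched on by removal of a propeptide, and are held in check by TIMPs, which bind the active site. MMP14 sits in the plasma membrane, cleaves collagen itself and activates pro-MMP2, with TIMP2 acting as the bridge between the 2 proteases at low amounts and as an inhibitor of MMP14 at high amounts. The plasminogen activators PLAU (urokinase, which PLAUR holds at the cell surface) and PLAT (tissue type) turn plasminogen into plasmin, which degrades fibrin and can start the activation of several pro-MMPs. MDA-MB-231 cells are widely used to study invasion, in which MMP14, PLAU and PLAUR are known to take part.

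What makes the 3 proteases metalloenzymes is a short stretch of the catalytic domain in which 3 histidines hold a zinc ion and a glutamate acts in catalysis. The coding bases of that stretch are shown because they are what MMP1, MMP3 and MMP14 share. They were read from GENCODE 29 transcripts (GRCh38), with the codons of the histidines and the glutamate in capitals.
MMP1: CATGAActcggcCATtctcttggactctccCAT
MMP3: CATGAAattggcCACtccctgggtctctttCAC
MMP14: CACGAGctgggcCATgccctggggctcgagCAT
Of these 33 bases, MMP1 and MMP3 had 24 in common, MMP1 and MMP14 had 23, and MMP3 and MMP14 had 22. MMP1 lies on the minus strand of chromosome 11 from 102789920 to 102798160 and MMP3 on the same strand from 102835801 to 102843803. MMP14 is on chromosome 14, plus strand, 22836557 to 22849027 (GRCh38, GENCODE 29).

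Levels are in CPM (gene counts scaled by TMM to a common library total), and tests are edgeR's quasi-likelihood test across all 6 libraries with Benjamini-Hochberg adjustment over all 15589 genes, called at 0.05. At 75 µg/ml, 5 of the 9 genes rose (MMP1, MMP3, MMP14, TIMP1 and PLAUR), TIMP2 and TIMP3 fell, and PLAU and PLAT did not pass. At 150 µg/ml the same 5 rose, and TIMP2, TIMP3, PLAU and PLAT fell. Among all tested genes, 38.6% were called at 75 µg/ml (19.2% higher and 19.4% lower) and 51.5% at 150 µg/ml (25.8% higher and 25.7% lower), so calls were common. Between the doses 22% of all genes were called (9.51% higher and 12.5% lower), while of the 9 genes MMP3 rose further at 150 µg/ml against 75 µg/ml and TIMP2, TIMP3, PLAU and PLAT fell. The median log2 fold change of the 9 genes was 0.27 at 75 µg/ml and 0.41 at 150 µg/ml, beside 0.015 and 0.029 for all tested genes. Both doses were compared with the same DMSO libraries, so their fold changes are not independent of each other.

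The scaling of the libraries matters for the small changes. With plain gene totals in place of TMM, the median over all genes moved, on the log2 scale, to 0.14 at 75 µg/ml and 0.22 at 150 µg/ml, and the calls over all genes shifted to 4501 higher and 1816 lower at 75 µg/ml and to 6031 higher and 2542 lower at 150 µg/ml. With TMM they were 2989 higher and 3026 lower at 75 µg/ml and 4022 higher and 4000 lower at 150 µg/ml. For the 9 genes the same scaling gave 6 higher and 1 lower at 75 µg/ml, and 5 higher and 2 lower at 150 µg/ml. Between the doses it gave 3 higher and 4 lower, beside 1 higher and 4 lower with TMM. The genes concerned are named below.

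**Figure D1:**
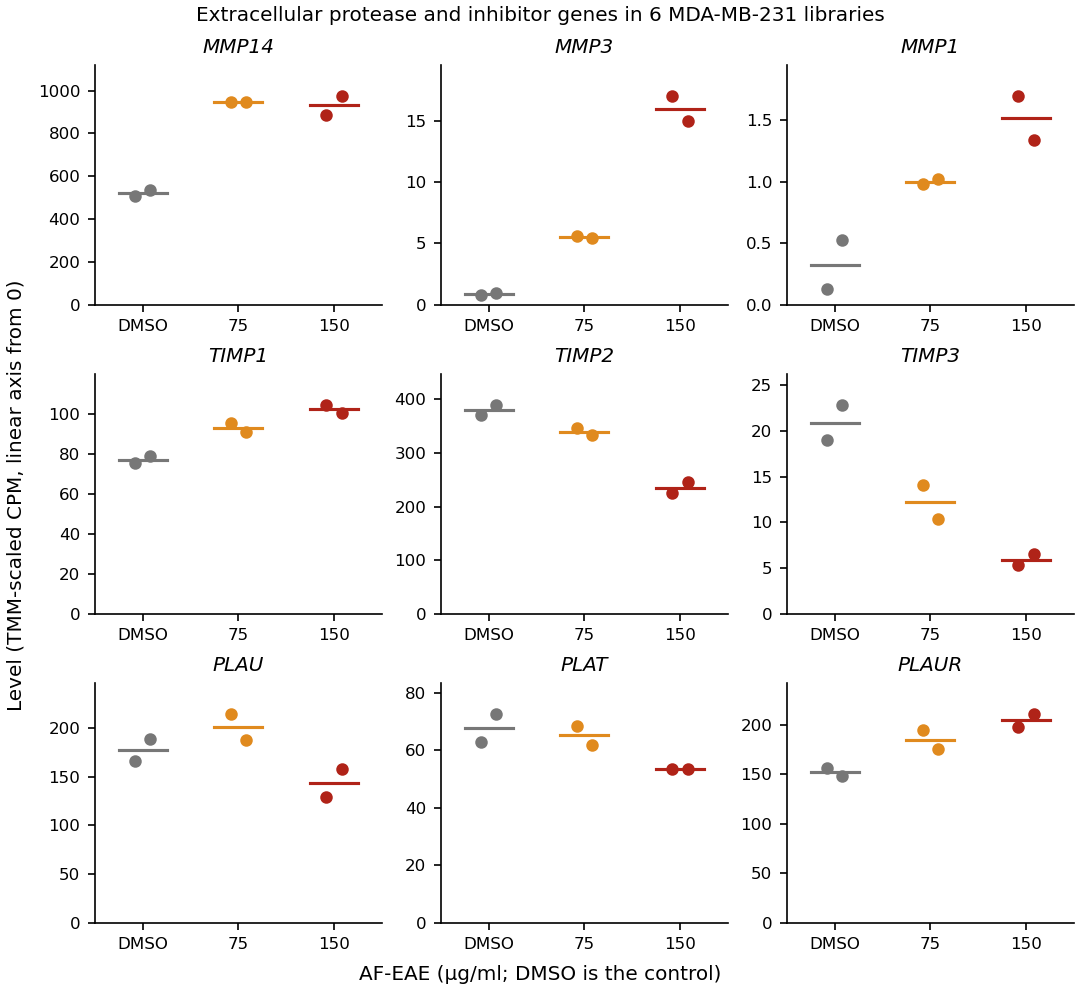
Level of each of the 9 genes in every library, in TMM-scaled CPM on a linear axis from 0, with 1 point per library and a line at the mean of the 2 libraries of a group. MMP14, at 946.1 ± 0.761 CPM at 75 µg/ml, was the most abundant, while MMP1 reached 1.51 ± 0.253 CPM at 150 µg/ml.

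MMP14 was the most abundant of the 3 metalloproteinase transcripts, with 99.6% and 99.4% of their summed level per kilobase in DMSO, and it rose at both doses. Its level was 509.6 and 537 CPM in the DMSO libraries, 946 and 947 CPM at 75 µg/ml and 888 and 973 CPM at 150 µg/ml. Every treated library was above both DMSO libraries, and the libraries of the 2 doses overlapped. MMP14 was 1.81-fold higher at 75 µg/ml (log2 fold change 0.85, SE 0.0490, edgeR adjusted p = 6.18e-10) and 1.78-fold higher at 150 µg/ml (0.83, SE 0.0490, edgeR adjusted p = 2.49e-10). Between the doses its log2 fold change was -0.024 (SE 0.0482, edgeR adjusted p = 0.784), and it turned to 0.037 with plain gene totals.

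MMP3, stromelysin 1, degrades proteoglycans, laminin and fibronectin and can activate other pro-MMPs. It had the largest fold change of the 9 genes. Its counts were 13 and 14 with DMSO, 92 and 91 with 75 µg/ml and 281 and 258 with 150 µg/ml, which is 0.820 and 0.916 CPM, then 5.62 and 5.47 CPM, then 17.0 and 15.0 CPM. The 3 groups did not overlap. MMP3 was 6.35-fold higher at 75 µg/ml (log2 fold change 2.67, SE 0.246, edgeR adjusted p = 2.02e-07) and 18.3-fold higher at 150 µg/ml (4.19, SE 0.219, edgeR adjusted p = 5.17e-11). The step between the doses was 2.88-fold (1.53, SE 0.160, edgeR adjusted p = 3.34e-06).

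MMP1, the interstitial collagenase that opens the triple helix of fibrillar collagens, was close to the limit of detection. The DMSO libraries held 2 and 8 counts, those at 75 µg/ml 16 and 17, and those at 150 µg/ml 28 and 23. The groups did not overlap, but DMSO replicate 1 was below the 3 counts taken as the floor of a library (0.189 CPM in that library). Pooled over the libraries of a group, MMP1 counts were 3.11 times as high at 75 µg/ml as in DMSO (95% interval 1.499 to 7.08) and 4.70 times as high at 150 µg/ml (2.36 to 10.4). These are exact binomial intervals of the scaled counts and cover counting error only. The fitted log2 fold changes were 1.61 at 75 µg/ml (SE 0.587, edgeR adjusted p = 0.0382) and 2.21 at 150 µg/ml (SE 0.555, edgeR adjusted p = 0.00292). Without DMSO replicate 1 neither passed, at 0.92 (edgeR adjusted p = 0.319) and 1.51 (edgeR adjusted p = 0.0536). Without DMSO replicate 2 both passed, at 2.91 (edgeR adjusted p = 0.0133) and 3.50 (edgeR adjusted p = 0.00144), so the size of the change rests on the DMSO libraries. At 75 µg/ml the call was also lost without either 75 µg/ml library (edgeR adjusted p of 0.1 and 0.121) and without either 150 µg/ml library (0.0656 and 0.0626), and with DESeq2 (adjusted p = 0.142). Between the doses its log2 fold change was 0.59 (SE 0.455, edgeR adjusted p = 0.403).

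MMP1 and MMP3 are neighbours in a cluster of metalloproteinase genes on chromosome 11. The other listed genes of that cluster were at or near 0: MMP13, MMP20 and MMP27 had 0 counts in all 6 libraries, and MMP7, MMP8, MMP10 and MMP12 had at most 3 counts in any library. Of their exonic bases, 7.6% of those of MMP1 and 1.6% of those of MMP3 overlap the pseudogene WTAPP1 on the other strand, which had 0 counts throughout. MMP2, the gelatinase that MMP14 activates, had 0 counts in all 6 libraries, where the floor of 3 counts equals 0.174 to 0.196 CPM by library. MMP9, the other gelatinase, had 4 and 12 counts in DMSO, 22 and 11 with 75 µg/ml and 7 and 14 with 150 µg/ml, with edgeR adjusted p of 0.234 and 0.759 against DMSO.

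The inhibitors did not move together. TIMP1, a secreted inhibitor that binds MMP14 only weakly, rose, while TIMP2 and TIMP3 fell. TIMP1 (plus strand of chromosome X, 47582313 to 47586789) was at 75.3 and 78.8 CPM in DMSO, 95.3 and 90.8 CPM with 75 µg/ml and 104 and 100.5 CPM with 150 µg/ml. Its groups did not overlap. It was 1.21-fold higher at 75 µg/ml (log2 fold change 0.27, SE 0.0613, edgeR adjusted p = 0.00186) and 1.33-fold higher at 150 µg/ml (0.41, SE 0.0608, edgeR adjusted p = 2.26e-05). The step between the doses did not pass (0.14, SE 0.0597, edgeR adjusted p = 0.119), although it did with plain gene totals (0.20, adjusted p = 0.0245).

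TIMP2 (minus strand of chromosome 17, 78852977 to 78925387) was at 370.4 and 389 CPM in DMSO, 347 and 333 CPM with 75 µg/ml and 225 and 245 CPM with 150 µg/ml. Most of its fall lay between the doses. Its log2 fold change was -0.16 at 75 µg/ml (SE 0.0510, edgeR adjusted p = 0.0196), -0.69 at 150 µg/ml (SE 0.0518, edgeR adjusted p = 5.49e-09) and -0.53 at 150 µg/ml against 75 µg/ml (SE 0.0518, edgeR adjusted p = 1.52e-06). The small change at 75 µg/ml was not called with plain gene totals (-0.033, adjusted p = 0.643), without DMSO replicate 2 (-0.13, adjusted p = 0.108) or without 75 µg/ml replicate 2 (-0.13, adjusted p = 0.147). The 2 larger ones were called under every alternative tried. Of the exonic bases of TIMP2, 6.5% overlap the antisense gene AC022966.1 and 3.5% overlap CEP295NL, which had 6 to 13 counts in a library.

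TIMP3, which stays bound to the matrix and also inhibits some ADAM-family sheddases, had the largest fall. Its position is chromosome 22, plus strand, 32801701 to 32863043, within SYN3 on the other strand, with which it shares no exonic bases and which had at most 2 counts in a library. TIMP3 had 19.0 and 22.8 CPM in DMSO, 14.1 and 10.4 CPM with 75 µg/ml and 5.32 and 6.50 CPM with 150 µg/ml, with no overlap between groups. Its log2 fold change was -0.77 at 75 µg/ml (SE 0.154, edgeR adjusted p = 0.000712) and -1.82 at 150 µg/ml (SE 0.168, edgeR adjusted p = 8.11e-08). Between the doses it was -1.05 (SE 0.176, edgeR adjusted p = 0.000373). The level at 150 µg/ml was 0.284 of that in DMSO.

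**Figure D2:**
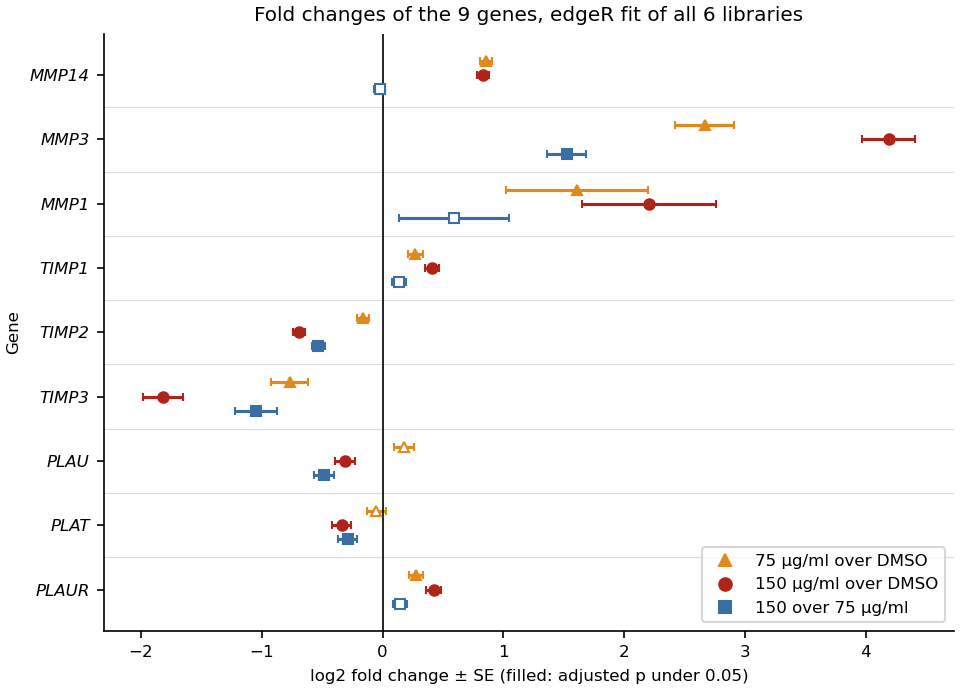
Log2 fold change with its SE from the edgeR fit, for each of the 9 genes and each pair of groups, with filled symbols where the adjusted p was under 0.05. MMP3 stands at 4.19 and TIMP3 at -1.82 for 150 µg/ml over DMSO, and MMP1, a gene with few counts, has the widest error bars.

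Because genes differ in length, levels were compared between genes as CPM per kilobase of exon, with the exonic bases of all annotated transcripts counted. On that scale the 3 TIMP transcripts summed to 119 and 125 in DMSO, 126.5 and 120.2 with 75 µg/ml and 109 and 110.1 with 150 µg/ml, while their make-up shifted. TIMP1 made up 41.2% and 40.9% of the sum in DMSO, 48.9% and 49.0% with 75 µg/ml and 62.2% and 59.2% with 150 µg/ml. TIMP2 made up 55.4% and 55.2%, then 48.7% and 49.1%, then 36.8% and 39.5% in the same libraries. TIMP3 made up 3.47% and 3.96% in DMSO, 2.43% and 1.88% with 75 µg/ml and 1.06% and 1.28% with 150 µg/ml. On this scale TIMP2 led the 3 TIMP transcripts in DMSO and TIMP1 at 150 µg/ml, with both level at 75 µg/ml.

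The ratio of MMP14 to its partner TIMP2 within a library does not depend on the scaling. It was 1.74 and 1.74 in DMSO, 3.44 and 3.59 with 75 µg/ml and 4.98 and 5.01 with 150 µg/ml, so each dose stood apart from the group before it. From DMSO to 75 µg/ml the larger change was in MMP14, and from 75 to 150 µg/ml in TIMP2. The ratio of MMP3 to TIMP1 was 0.00819 and 0.00876 in DMSO, 0.0444 and 0.0453 with 75 µg/ml and 0.123 and 0.112 with 150 µg/ml. A permutation of 2 against 2 libraries cannot give a two-sided p below 0.333, so the ratios are given without a test.

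**Figure D3:**
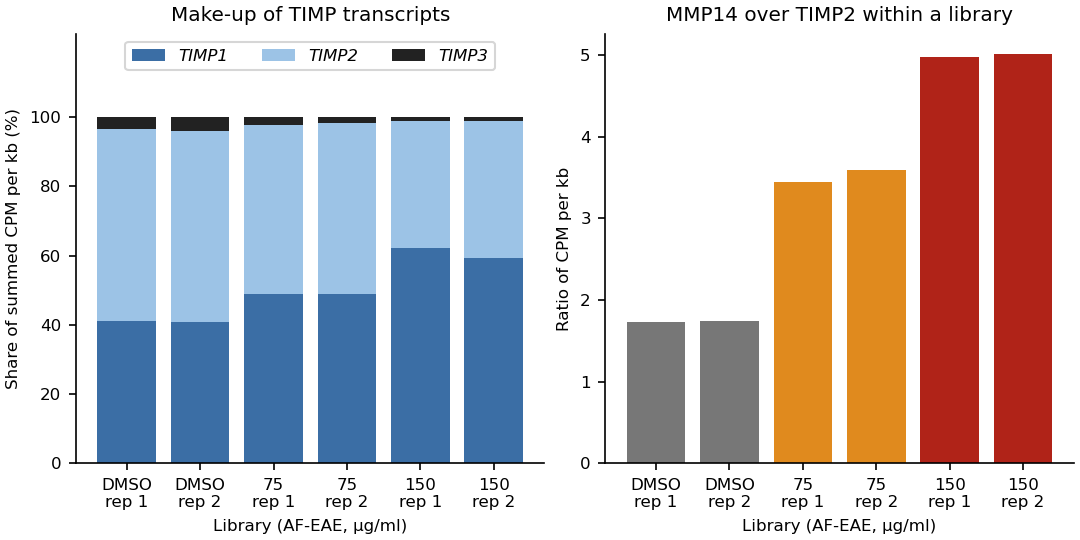
Left, the share of TIMP1, TIMP2 and TIMP3 in their summed CPM per kilobase of exon in each library. Right, the ratio of MMP14 to TIMP2 on the same scale, which was 1.74 in both DMSO libraries and 4.98 and 5.01 at 150 µg/ml.

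In the plasminogen system the receptor rose and the activators fell at the higher dose. PLAUR encodes the urokinase receptor, which is anchored in the membrane by a lipid tail. Its gene lies on the minus strand of chromosome 19 from 43646095 to 43670547. It was at 157 and 148 CPM in DMSO, 195 and 176 CPM with 75 µg/ml and 198 and 211 CPM with 150 µg/ml. The groups did not overlap. PLAUR was 1.21-fold higher at 75 µg/ml (log2 fold change 0.28, SE 0.0591, edgeR adjusted p = 0.00113) and 1.34-fold higher at 150 µg/ml (0.42, SE 0.0588, edgeR adjusted p = 1.08e-05). The step between the doses was 0.14 (SE 0.058, edgeR adjusted p = 0.0903). It was called with plain gene totals (0.20, adjusted p = 0.0157), without 75 µg/ml replicate 1 (0.23, adjusted p = 0.0356) and with the filter at 5 CPM (0.16, adjusted p = 0.046).

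PLAU, the urokinase gene (chromosome 10, plus strand, 73909177 to 73917497), did not follow its receptor. It was at 166 and 188 CPM in DMSO, 214 and 187 CPM with 75 µg/ml and 129 and 158 CPM with 150 µg/ml. The 75 µg/ml libraries overlapped the DMSO libraries, and the 150 µg/ml libraries were below all others. Its log2 fold change was 0.18 at 75 µg/ml (SE 0.0826, edgeR adjusted p = 0.105) and -0.31 at 150 µg/ml (SE 0.0839, edgeR adjusted p = 0.00513). The step between the doses was -0.48 (SE 0.0832, edgeR adjusted p = 0.000458), and it was called under every alternative tried. The fall against DMSO was not called with plain gene totals (-0.12, adjusted p = 0.229), without 150 µg/ml replicate 1 (-0.17, adjusted p = 0.135) or with DESeq2 (-0.34, adjusted p = 0.0838). At 75 µg/ml PLAU passed as higher with plain gene totals (0.30, adjusted p = 0.00676), without a low-count filter (0.17, adjusted p = 0.0143), without DMSO replicate 2 (0.27, adjusted p = 0.0241) and without 75 µg/ml replicate 2 (0.27, adjusted p = 0.0245). Of the exonic bases of PLAU, 31.1% overlap C10orf55 on the other strand, which had 3 to 16 counts in a library. The part of this overlap in the values of PLAU was not tested.

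PLAT, tissue plasminogen activator, lies on the minus strand of chromosome 8 from 42175233 to 42207724. It was at 62.9 and 72.5 CPM in DMSO, 68.6 and 62.1 CPM with 75 µg/ml and 53.4 and 53.6 CPM with 150 µg/ml. The libraries at 75 µg/ml overlapped those of DMSO and those at 150 µg/ml were below all others. Its log2 fold change was -0.34 at 150 µg/ml (SE 0.0797, edgeR adjusted p = 0.00171) and -0.29 at 150 µg/ml against 75 µg/ml (SE 0.0796, edgeR adjusted p = 0.0151). At 75 µg/ml it was -0.051 (SE 0.0786, edgeR adjusted p = 0.648), and 0.075 with plain gene totals. The fall against DMSO was not called with plain gene totals (-0.15, adjusted p = 0.118). The step between the doses was not called without 75 µg/ml replicate 1 (-0.21, adjusted p = 0.193), without 150 µg/ml replicate 1 (-0.28, adjusted p = 0.111) or without 150 µg/ml replicate 2 (-0.29, adjusted p = 0.0786).

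In DMSO the order of levels, in CPM per kilobase of exon, was MMP14 (117 ± 4.36), TIMP2 (67.4 ± 2.29), PLAU (60.2 ± 5.27), TIMP1 (50.0 ± 1.57), PLAUR (34.2 ± 1.32), PLAT (10.2 ± 1.03), TIMP3 (4.54 ± 0.585), MMP3 (0.424 ± 0.0335) and MMP1 (0.165 ± 0.143; SD, n = 2 each). No neighbours in that order overlapped. The place of PLAU beside TIMP2 is uncertain, because both genes share exonic bases with others, PLAU the more. All places also rest on exon lengths that count the exonic bases of every annotated transcript, 4457 for PLAUR and 6618 for PLAT. For MMP14 this length is 4464, against 3732 for the single transcript read above. The order could differ with the lengths of the transcripts expressed, which were not measured. Per kilobase, MMP14 in DMSO was above 98.1% of 15436 tested genes with a known length and MMP1 above 5.5%. At 75 µg/ml the level of MMP14 was 212 ± 0.170 CPM per kilobase, and TIMP1 (60.4 ± 2.10) and TIMP2 (60.3 ± 1.75) overlapped, as did TIMP3 (2.66 ± 0.573) and MMP3 (2.71 ± 0.0542; SD, n = 2 each). At 150 µg/ml the libraries of PLAU (48.5 ± 6.93) and PLAUR (45.9 ± 1.93) overlapped, and MMP3 (7.80 ± 0.693) had come level with PLAT (8.08 ± 0.0158; SD, n = 2 each). MMP3 stood above 14% of genes in DMSO, above 39.9% at 75 µg/ml and above 62.9% at 150 µg/ml.

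The libraries of a pair of groups did not overlap for 7 of the 9 genes at 75 µg/ml against DMSO, for 9 at 150 µg/ml against DMSO and for 8 at 150 µg/ml against 75 µg/ml. The same held for 68.5%, 74.8% and 60.6% of all tested genes in these 3 comparisons.

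Sequence before a RefSeq start site is shown for 3 genes: MMP14, as the abundant protease that rose, TIMP3, as the inhibitor with the largest fall, and PLAUR, as the only one of the matched members that held an AP-1 motif. RefSeq windows (GRCh38.p14) were matched for 5 of the members searched: MMP14, TIMP1, TIMP3, PLAUR and PLAU, the last with 2 start sites. No window was found for MMP1, MMP3 or TIMP2. PLAT was left out of the search, so whether it holds any of the motifs was not tested. In the 250 bases before each start, both strands were searched for 7 motifs. These were the AP-1 motif, spelled TGACTCA, the CRE, spelled TGACGTCA, and the TEAD motif, spelled CATTCC. The antioxidant response element was spelled TGACNNNGC, the PEA3/ETS motif AGGAAG, and the GC box GGGCGG, while the box near many start sites was searched as TATAAA. Capitals mark the motif matches, and bases that GENCODE places in an exon were left off the runs of MMP14 and TIMP3. The PLAUR run lies before its RefSeq start but within the gene as GENCODE 29 gives it, where exons of the gene cover all of it.
MMP14, chr14:22836335-22836556, plus strand: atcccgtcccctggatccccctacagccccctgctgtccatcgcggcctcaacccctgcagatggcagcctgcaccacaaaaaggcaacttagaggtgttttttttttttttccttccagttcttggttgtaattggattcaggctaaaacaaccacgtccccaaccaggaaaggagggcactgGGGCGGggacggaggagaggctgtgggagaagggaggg
TIMP3, chr22:32801455-32801700, plus strand: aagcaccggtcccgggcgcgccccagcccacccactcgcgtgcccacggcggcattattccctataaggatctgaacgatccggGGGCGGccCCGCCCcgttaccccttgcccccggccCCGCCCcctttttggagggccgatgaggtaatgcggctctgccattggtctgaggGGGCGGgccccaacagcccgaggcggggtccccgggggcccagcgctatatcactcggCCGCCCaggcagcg
PLAUR, chr19:43670337-43670366, minus strand: tcacaactccaTGAGTCAgggccgagccag

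The MMP14 window held 1 GC box, 66 bases before the start, and none of the other motifs. The TIMP3 window held 5 GC boxes on the 2 strands and none of the others. PLAUR held an AP-1 motif that began 186 bases before the start and an AGGAAG on the other strand near the start. TIMP1 held 1 AGGAAG and 2 GC boxes, and the PLAU windows held an antioxidant response element at one start site and an AGGAAG with 3 GC boxes at the other. A GC box was in 42.6% of 35116 windows of the same length, AGGAAG in 28.7%, CATTCC in 11.9%, the antioxidant response element in 10.9%, TATAAA in 10.7%, TGACTCA in 4.2% and TGACGTCA in 1.6%. The antioxidant response element shares its first letters with TGACTCA and TGACGTCA and can overlap either. These matches describe letters in a window, not sites in use.

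Other genes of the same systems were read from the same fit, and their medians stand beside 0.015 at 75 µg/ml and 0.029 at 150 µg/ml for all tested genes. Of 18 plasminogen system partners, 10 were tested, and at each dose 4 rose and 4 fell against DMSO (median log2 fold change 0.34 at 75 µg/ml and 0.17 at 150 µg/ml). Those that fell included 3 genes whose products bind plasminogen at the cell surface. ANXA2 and S100A10 encode the annexin A2 and p11 subunits of a complex that binds plasminogen and PLAT. ANXA2 averaged 848 ± 3.66 CPM at 150 µg/ml, against 1889 ± 16.8 CPM in DMSO (SD, n = 2 each), which is -1.16 on the log2 scale (SE 0.0411), and S100A10 was at -0.52 (SE 0.0586). ENO1, a glycolytic enzyme also found as a plasminogen receptor, was at -0.94 (SE 0.0417). PLGRKT, another plasminogen receptor gene on the list, named after its values were seen, did not pass at 75 µg/ml (-0.026, edgeR adjusted p = 0.903) or 150 µg/ml (-0.11, edgeR adjusted p = 0.507). ANXA2, ENO1 and S100A10 have processed copies in the genome, and their levels are uncertain to that extent.

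The plasminogen partners that rose included serpins. SERPINE2, protease nexin 1, which inhibits PLAU and thrombin, averaged 54.5 ± 1.04 CPM at 150 µg/ml, against 26.6 ± 0.437 CPM in DMSO (SD, n = 2 each), and was 1.64-fold higher at 75 µg/ml and 2.05-fold higher at 150 µg/ml. SERPINI1, neuroserpin, an inhibitor of PLAT, was 1.65-fold and 2.23-fold higher. SERPINB2, plasminogen activator inhibitor 2, was named after its values were seen. It had 0 and 2 counts in DMSO, 2 and 12 with 75 µg/ml and 46 and 54 with 150 µg/ml, and passed at 150 µg/ml (edgeR adjusted p = 1.44e-05) but not at 75 µg/ml (edgeR adjusted p = 0.0608). PLG, plasminogen itself, had 0 counts in all 6 libraries.

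Of 4 other inhibitors of the metalloproteinases or plasmin, 3 were tested and all 3 rose at both doses (median log2 fold change 0.76 at 75 µg/ml and 1.00 at 150 µg/ml). TIMP4, the remaining member of the TIMP family, was at 1.07 and 1.90 CPM in DMSO, 7.27 and 6.31 CPM with 75 µg/ml and 8.04 and 9.06 CPM with 150 µg/ml, 4.57-fold higher at 75 µg/ml (SE of the log2 fold change 0.259, edgeR adjusted p = 3.42e-06) and 5.76-fold higher at 150 µg/ml (SE 0.253, edgeR adjusted p = 2.13e-07). TIMP1 and TIMP4 thus rose where TIMP2 and TIMP3 fell. TFPI2, a Kunitz-type inhibitor of plasmin, was 1.45-fold and 2.00-fold higher, with log2 fold changes of 0.54 (SE 0.0940) and 1.00 (SE 0.0916). RECK, a membrane-anchored inhibitor of MMP14 and other proteases, averaged 18.4 ± 0.245 CPM at 75 µg/ml and 14.6 ± 0.671 CPM at 150 µg/ml, against 10.9 ± 0.835 CPM in DMSO (SD, n = 2 each). Its log2 fold changes were 0.76 (SE 0.124, edgeR adjusted p = 0.000103) at 75 µg/ml and 0.43 (SE 0.127, edgeR adjusted p = 0.00895) at 150 µg/ml.

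Of 20 other metalloproteinase genes, 8 passed the filter on low counts. At 75 µg/ml 2 of them rose (median log2 fold change 0.66), and at 150 µg/ml 4 rose and 1 fell (median 0.60). MMP15, a membrane-type relative of MMP14, was at 25.7 and 25.3 CPM in DMSO, 42.0 and 42.9 CPM with 75 µg/ml and 34.3 and 33.3 CPM with 150 µg/ml. It was 1.66-fold higher at 75 µg/ml (SE of the log2 fold change 0.0855, edgeR adjusted p = 2.94e-06) and 1.33-fold higher at 150 µg/ml (SE 0.0869, edgeR adjusted p = 0.000789), and it fell between the doses (log2 fold change -0.33, edgeR adjusted p = 0.0086). For RECK the step between the doses, also downward, did not pass (-0.34, SE 0.119, edgeR adjusted p = 0.0529).

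Among 10 genes of pro-MMP activation and docking, 2 rose and 1 fell at 75 µg/ml (median log2 fold change 0.12), and 2 rose and 4 fell at 150 µg/ml (median -0.17). This split depended on the scaling, since plain gene totals gave 5 higher and 0 lower at 75 µg/ml and 4 higher and 2 lower at 150 µg/ml, with the median there at 0.014. FURIN, the convertase that cleaves the MMP14 propeptide, was at 168 ± 4.30 CPM at 150 µg/ml, against 230 ± 0.651 CPM in DMSO (SD, n = 2 each), which on the log2 scale is -0.46 (SE 0.0498). CD44, a hyaluronan receptor to which MMP14 can attach, was at -0.56 (SE 0.0440) at 150 µg/ml. CTSB, a lysosomal protease that can activate pro-PLAU, rose at both doses, with log2 fold changes of 0.38 (SE 0.0476) at 75 µg/ml and 0.24 (SE 0.0477) at 150 µg/ml. ITGAV, an integrin subunit, and MRC2, a collagen receptor that associates with PLAUR, passed as lower at 150 µg/ml (-0.26 and -0.37). They did not pass with plain gene totals (-0.073 and -0.18). ITGB3, another integrin subunit on the list, had a mean of 4.83 CPM and was named after its values were seen. It was 3.24-fold higher at 75 µg/ml (edgeR adjusted p = 3.8e-05) and 3.68-fold higher at 150 µg/ml (edgeR adjusted p = 5.51e-06). Of its exonic bases, 51.6% overlap other genes.

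ADAM and ADAMTS proteases, relatives of the metalloproteinases of which TIMP3 inhibits some, moved both ways. Of 15 tested, 6 rose and 7 fell at 75 µg/ml (median log2 fold change -0.013, and 0.11 with plain gene totals) and 5 rose and 8 fell at 150 µg/ml (median -0.27). ADAM17, the sheddase that releases TNF and several EGF receptor ligands, averaged 140.2 ± 2.00 CPM at 150 µg/ml, against 75.1 ± 2.73 CPM in DMSO (SD, n = 2 each), 1.87-fold higher (SE of the log2 fold change 0.0569, edgeR adjusted p = 5.71e-10), and had a log2 fold change of 0.58 at 75 µg/ml. ADAM9 and ADAM10, which are also sheddases, were at -0.82 (SE 0.0495) and -0.71 (SE 0.0498) at 150 µg/ml. ADAMTS12 (-1.09, SE 0.0916) and ADAMTS6 (-1.12, SE 0.121) fell, and ADAMTS9, a proteoglycan-cleaving protease, was 3.25-fold higher at 150 µg/ml.

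Factors of the AP-1 and ETS families, which are known to act on promoters of MMP1, MMP3, PLAU and PLAUR, also moved both ways. Of 13 tested, 5 rose and 4 fell at 75 µg/ml (median log2 fold change 0.33) and 7 rose and 4 fell at 150 µg/ml (median 0.31). ETS1 averaged 380.3 ± 18.2 CPM at 150 µg/ml, against 735 ± 6.79 CPM in DMSO (SD, n = 2 each), which on the log2 scale is -0.95 (SE 0.0472), and FOSL1, the most abundant FOS-family gene listed, was at -0.42 (SE 0.0447). FOSL2 was at -0.47 (SE 0.057). FOS and FOSB, with means below 5 CPM, were named after their values were seen and passed as higher at 150 µg/ml. FOS was at 1.79 (SE 0.359, edgeR adjusted p = 0.000445) and FOSB at 2.40 (SE 0.400, edgeR adjusted p = 7.37e-05). At 75 µg/ml neither passed (edgeR adjusted p of 0.127 and 0.21). The libraries at 150 µg/ml held 140 and 62 counts of FOS and 87 and 51 of FOSB. JUNB was 3.79-fold higher at 150 µg/ml and JUND 1.69-fold, and ETV5 was at 0.59 (SE 0.0593).

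**Figure D4:**
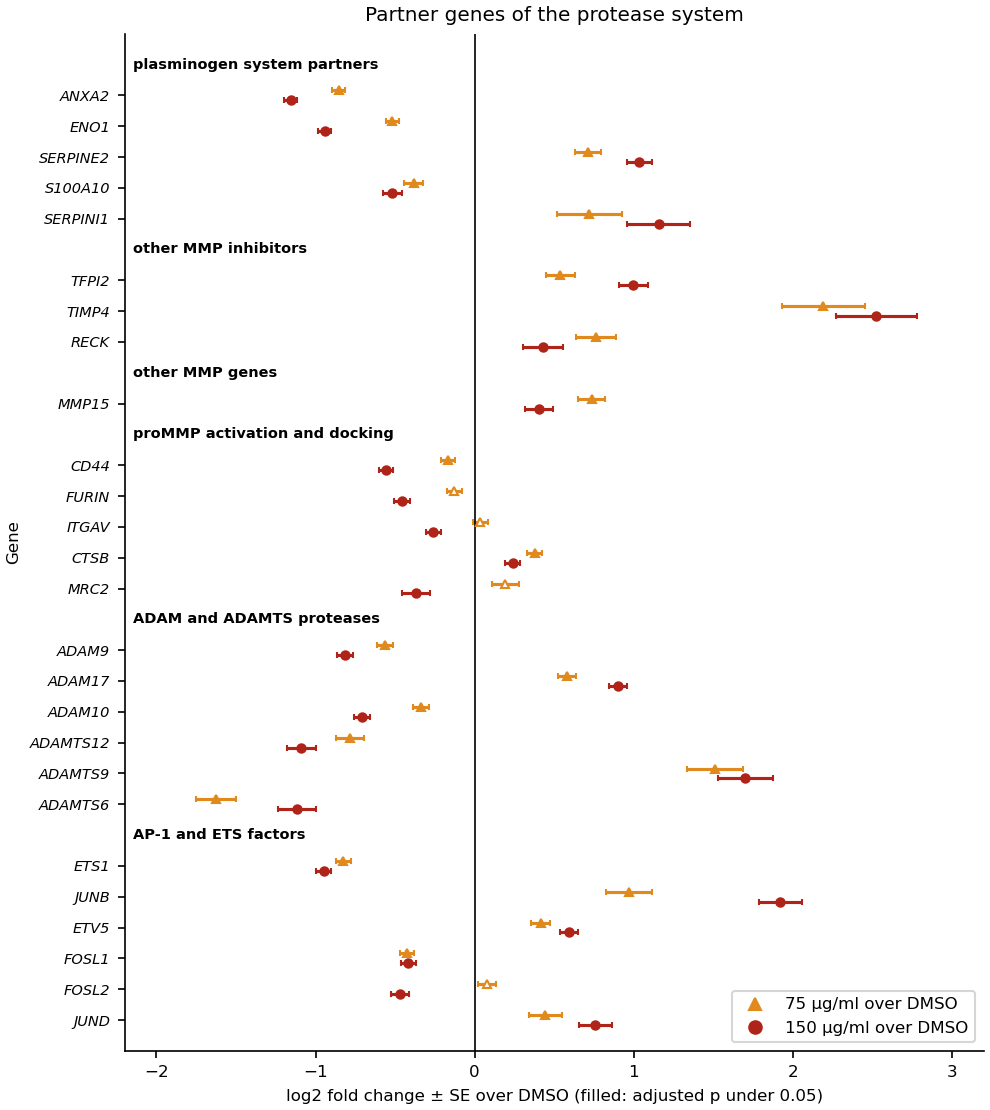
Log2 fold change over DMSO with its SE for the partner genes named in the text by rule, grouped by list, at 75 µg/ml (triangles) and 150 µg/ml (circles), with filled symbols where the edgeR adjusted p was under 0.05. ENO1 and ANXA2 lie left of 0, and TIMP4, at 5.76-fold for 150 µg/ml, lies farthest right.

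The genes whose profiles over the 6 libraries were most like each member were found by distance between centred log2 CPM profiles, among 9509 genes with a mean of 10 CPM or more. MMP1 and MMP3 are below that mean and were not compared. For PLAU the nearest was CD82, a tetraspanin gene, at a distance of 0.077 on the log2 scale. CD82 was at 86.3 and 97.0 CPM in DMSO, 109 and 101.3 CPM with 75 µg/ml and 68.9 and 82.8 CPM with 150 µg/ml, the same order of libraries as PLAU within each group. The nearest profile was UBXN4 for TIMP1 (0.034), PLEKHA2 for TIMP2 (0.077), C6orf62 for PLAUR (0.086), KIF14 for PLAT (0.087) and ATL1 for MMP14 (0.091). For TIMP3 it was MGAT5B at 0.38, a larger distance than for the other members. MGAT5B fell as TIMP3 did, with log2 fold changes of -0.99 at 75 µg/ml and -1.95 at 150 µg/ml. TIMP3 had the lowest mean of the members compared, 13.0 CPM, and its libraries at 75 µg/ml were at 14.1 and 10.4 CPM. The distance is not scaled for such spread, whose part was not tested. The distances are descriptions over 6 libraries in 3 groups, and many genes with a like dose pattern lie close together.

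Gene counts per library ran from 15621103 to 17113722, and libraries of a group correlated at 0.990 to 0.991 in log2 CPM across genes, against 0.963 to 0.987 between groups. Markers of a mesenchymal-like breast line were all present (VIM, AXL, CD44, CAV1, MSN and ZEB1). Their summed level was 4712 and 4585 CPM in DMSO, 3456 and 3397 CPM with 75 µg/ml and 2687 and 2747 CPM with 150 µg/ml. With TMM, 5 of the 6 fell at each dose. Of all tested genes, 19.4% were called lower at 75 µg/ml and 25.7% at 150 µg/ml. With plain gene totals, 4 of the 6 fell at 75 µg/ml, and 5 fell and 1 rose at 150 µg/ml. The label calls the cells epithelial, yet the epithelial cadherin gene CDH1 was at 0 in both DMSO libraries and at most 0.121 CPM elsewhere, and EPCAM was at 3.69 to 5.47 CPM. The 8 luminal markers summed to 135 and 137 CPM in DMSO, 204 and 199.6 CPM with 75 µg/ml and 264 and 242 CPM with 150 µg/ml. Most of these sums and of their rise was XBP1. It alone was at 88.3 and 87.9 CPM in DMSO, 151 and 152 CPM with 75 µg/ml and 217 and 193 CPM with 150 µg/ml. Of the 5 tested, 3 rose and 1 fell at 150 µg/ml. The one that fell was GATA3 (log2 fold change -0.90, SE 0.167, edgeR adjusted p = 0.00022), and EPCAM did not pass. Fibroblast markers summed to 8.76 to 15.6 CPM, with DCN at 0 in every library, endothelial markers to 10.8 to 17.7 CPM, and leukocyte markers to 0.252 to 0.428 CPM, with PTPRC at 0 in every library. The part of these shifts in the results above was not tested. In bulk RNA, fewer cells of a kind and less RNA per cell cannot be told apart.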

How the data were processed

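The authors deposited raw counts of reads for each of 60651 gene rows, and 5 summary rows follow them in each library's table. HISAT2 2.2.1, HTSeq 2.0.2 and hg38 are named per the submitters' processing notes. Counting options, strand setting and annotation release are unknown from the labels, so antisense reads may not be separated. Reads that hit no counted feature made up 6.32% to 7.98% of the gene counts and summary rows together. Ambiguous reads, which fit several genes, made up 10.95% to 11.48%. Neither kind entered library sizes or tests. Gene counts per library (15621103 to 17113722) set a floor of 3 counts at 0.174 to 0.196 TMM-scaled CPM, counting error only.

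Symbols were matched to 60481 rows. Coordinates and exon lengths are from GENCODE 29. Tests used edgeR 4.0.16 in R 4.3.3 (TMM, default filter by group, quasi-likelihood F-test, a mean per group, Benjamini-Hochberg adjustment at 0.05). This left 3 residual degrees of freedom. SEs were derived from the F statistics. The test was also run on simulated counts with a common spread for all genes, for the comparisons with DMSO only. That run does not cover the gene-by-gene spread of these data or the step between the doses. DESeq2 1.42.0 and limma 3.58.1 were alternatives. Partner genes were named where the mean was 5 CPM or more and 1 comparison passed, up to 6 per list by p at 150 µg/ml. RECK was always named. Some results that this rule takes are not reported here. MMP2, MMP9, PLG, PLGRKT, SERPINB2, ITGB3, FOS, FOSB and the genes of the chromosome 11 cluster were named after their values were seen. The members, lists, motifs and rules were chosen with earlier results of these data known. Replicates were not copies, since counts within a group differed by more than sampling noise (chi-square per degree of freedom 2.70 to 3.43).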

Additional observations from a re-analysis of the deposited data

How the results depend on the processing

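For each of the 9 genes and 3 comparisons, 27 values in all, 16 kept their direction and their side of the threshold under every alternative that gave a value: other scalings, filters and tools, fits of 2 groups at a time, a replicate block, and each library left out. These include every comparison of MMP3 and TIMP3 and both doses against DMSO for MMP14, TIMP1 and PLAUR. Direction turned for PLAT at 75 µg/ml against DMSO, which was -0.051 and became 0.075 with plain gene totals, 0.052 without DMSO replicate 2 and 0.018 without 75 µg/ml replicate 2 (-0.15 to 0.052 over single libraries left out), and for MMP14 between the doses, which was -0.024 and became 0.037 with plain gene totals and 0.046 without 150 µg/ml replicate 1 (-0.086 to 0.046 over single libraries left out). None of these passed the test. MMP1 could not be tested with the filter at 5 CPM. The ratios within a library do not depend on scaling or filter, and with either library of a group left out the other's value stands in the report.

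Over all tested genes, the replicate numbers showed little pairing of the samples (correlations of deviations 0.059, 0.041 and 0.004). These correlations cannot exclude pairing in a part of the genes. With the replicate block, 6292 genes were called at 75 µg/ml against DMSO (6015 without), 8194 at 150 µg/ml (8022) and 3776 between the doses (3433). Of the 9 genes 8, 9 and 5 were called, with PLAU at 0.18 (adjusted p = 0.0413) added at 75 µg/ml. With a change of at least 1 on the log2 scale required, 936, 1827 and 226 genes were called, and 2, 3 and 2 of the 9. At an adjusted p under 0.01, 1883 genes were called between the doses. Leaving out single libraries gave 4654 to 5873, 6691 to 8021 and 1507 to 3714 genes, and 6 to 7, 8 to 9 and 4 to 5 of the 9. The lowest counts between the doses came without 150 µg/ml replicate 1 (1507) and without 75 µg/ml replicate 1 (1990), fits with fewer samples. Depth limits MMP1, whose DMSO libraries held 2 and 8 counts.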
